A study of Mus musculus with 28 samples.

Results

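Esrrb, Nr5a2 and Nr0b1 encode nuclear receptors of the naive pluripotency network of mouse embryonic stem (ES) cells. The 3 genes were taken by symbol from a table of 30386 genes, and all 3 passed the filter on low counts that kept 11080 genes for testing. They were followed in E14 cells, a mouse ES cell line, grown on gelatin in the serum-free medium N2B27. In 2iL this medium holds CHIR99021, a GSK3 inhibitor, PD0325901, a MEK inhibitor, and the cytokine LIF. The groups were 2iL, the same medium without 2iL for 24 h, 48 h, 96 h or 120 h, and 48 h or 96 h without 2iL followed by 24 h with it (48 h + 2iL and 96 h + 2iL). Each of the 7 groups held 4 libraries, 1 from each of 4 numbered experiments. The labels name no engineered allele, and all cells come from 1 line. The labels do not say whether the experiments used separate cultures, so p-values measure the spread between experiments as labelled.

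Nuclear receptors are transcription factors of a shared fold, many of them switched by small lipophilic ligands. Esrrb and Nr5a2 are orphan receptors that bind DNA as monomers at an extended half-site and can act without a known physiological ligand. Nr0b1 (Dax1) lacks the usual zinc-finger DNA-binding domain and is known mainly as a corepressor that binds other receptors. In mouse ES cells Esrrb is known as a target of the GSK3 and Tcf7l1 branch of 2iL and sustains self-renewal, Nr5a2 is known to bind the Pou5f1 regulatory regions, and the Nr0b1 protein is known to bind Oct4 and Esrrb.

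Esrrb (ENSMUSG00000021255) lies on the plus strand of chromosome 12 at 86361117 to 86521628 with 6 annotated transcripts (GENCODE M21, GRCm38). Nr5a2 (ENSMUSG00000026398) lies on the minus strand of chromosome 1 at 136842571 to 136960448, also with 6 transcripts. Nr0b1 (ENSMUSG00000025056) lies on the plus strand of the X chromosome at 86191764 to 86195947 with 1 transcript. No other annotated gene overlaps any of them. The 250 bases before each start annotated by RefSeq (GRCm38.p6) are shown where they held one of 8 short motifs, since Esrrb and Nr5a2 were alike in pattern and Nr0b1 moved the other way at 24 h. All are printed 5′ to 3′ on the gene's own strand, and capitals mark the motif match. The coordinates are chr12:86360867-86361116 (plus strand) for the first Esrrb start, chr1:136960449-136960698 and chr1:136953631-136953880 (minus strand) for the 2 Nr5a2 starts and chrX:86191525-86191774 (plus strand) for Nr0b1.
Esrrb, start 1: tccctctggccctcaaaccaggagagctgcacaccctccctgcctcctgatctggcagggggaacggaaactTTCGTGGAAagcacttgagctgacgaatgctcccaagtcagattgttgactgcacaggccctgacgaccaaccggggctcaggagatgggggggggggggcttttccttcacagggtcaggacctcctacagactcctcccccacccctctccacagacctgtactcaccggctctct
Nr5a2, start 1: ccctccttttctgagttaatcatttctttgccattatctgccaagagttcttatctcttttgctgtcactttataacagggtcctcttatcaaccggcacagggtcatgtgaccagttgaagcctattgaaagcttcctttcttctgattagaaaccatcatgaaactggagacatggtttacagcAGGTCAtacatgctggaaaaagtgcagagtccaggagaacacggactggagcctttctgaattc
Nr5a2, start 2: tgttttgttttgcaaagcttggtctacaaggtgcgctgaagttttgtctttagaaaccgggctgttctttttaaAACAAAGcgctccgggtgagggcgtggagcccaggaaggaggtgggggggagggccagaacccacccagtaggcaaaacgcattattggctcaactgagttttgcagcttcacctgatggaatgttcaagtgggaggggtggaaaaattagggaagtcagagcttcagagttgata
Nr0b1: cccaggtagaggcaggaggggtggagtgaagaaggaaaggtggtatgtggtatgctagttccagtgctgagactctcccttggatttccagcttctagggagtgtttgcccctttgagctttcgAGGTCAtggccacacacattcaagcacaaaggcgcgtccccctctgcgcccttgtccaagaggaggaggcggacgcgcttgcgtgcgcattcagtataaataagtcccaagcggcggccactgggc

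The first Esrrb window held the STAT motif TTCNNNGAA, 178 to 170 bases before the start. The motif reads the same on both strands and was present in 7.01% of 32817 mouse promoter windows of this length. The nuclear receptor half-site AGGTCA stood 64 to 59 bases before the first Nr5a2 start and 126 to 121 bases before the Nr0b1 start, and 14.03% of all windows held it on either strand. The second Nr5a2 window held the TCF/LEF motif CTTTGTT on the reverse strand, 176 to 170 bases before the start, as did 5.03% of all windows on either strand. The second Esrrb start, with its window at chr12:86421394-86421643, held none of the 8 motifs. No member's window held the extended sites TCAAGGTCA (ESRRB, 0.387% of all windows) or TCAAGGCCA (NR5A2, 0.512%), which contain or resemble the half-site, nor CTTTGAT (TCF/LEF, 3.21%), the octamer ATGCAAAT (1.603%) or the KLF motif GGGTGTGG (3.19%), all searched on both strands. A match describes the letters of a window, and which of the annotated starts the cells used was not measured by 3′ end counting.

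The libraries held 1554830 to 2828694 gene counts, and 13021 to 14923 genes had a count. The ES cell markers Pou5f1, Sox2, Sall4 and Lin28a summed to between 804 and 1334 CPM (counts scaled to a common library size) in every library, with none of the 4 at 0 in any group. The sum does not show that each gene held its level. By the test described below, 1 rose and 2 fell at 120 h against 2iL, where 24.6% of tested genes rose and 22.6% fell. In 96 h + 2iL against 96 h, 3 fell, where 5.23% of tested genes did. On the first principal component of all tested genes, the 96 h library of experiment 3 scored 68.5, within the range of the 120 h libraries (56.8 to 82.7) and apart from the other 96 h libraries (28.1 to 43.7). The 96 h + 2iL library of experiment 3 scored 78.4, above the other 3 (33.5 to 58.8). Fold changes of the receptors at 96 h and in 96 h + 2iL are therefore also given without experiment 3.

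Esrrb and Nr5a2 fell after withdrawal of 2iL and rose when it was returned, to levels not told apart from 2iL after 48 h and to lower ones after 96 h. Nr0b1 instead rose 3.56-fold at 24 h, stood near its 2iL level at 48 h, and fell after that. Against the 48 h and 96 h groups, from which 2iL was returned, no change of Nr0b1 was detected. No withdrawn group was collected equally long after the first withdrawal as 48 h + 2iL. An unchanged level against the earlier 48 h group therefore does not show that Nr0b1 did not respond. Levels are given in CPM after TMM scaling, and a change is called where the Benjamini-Hochberg adjusted p of edgeR's quasi-likelihood test over all 11080 genes was under 0.05. In these bulk libraries, fewer cells expressing a gene and less of its RNA per cell cannot be told apart.

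**Figure D1:**
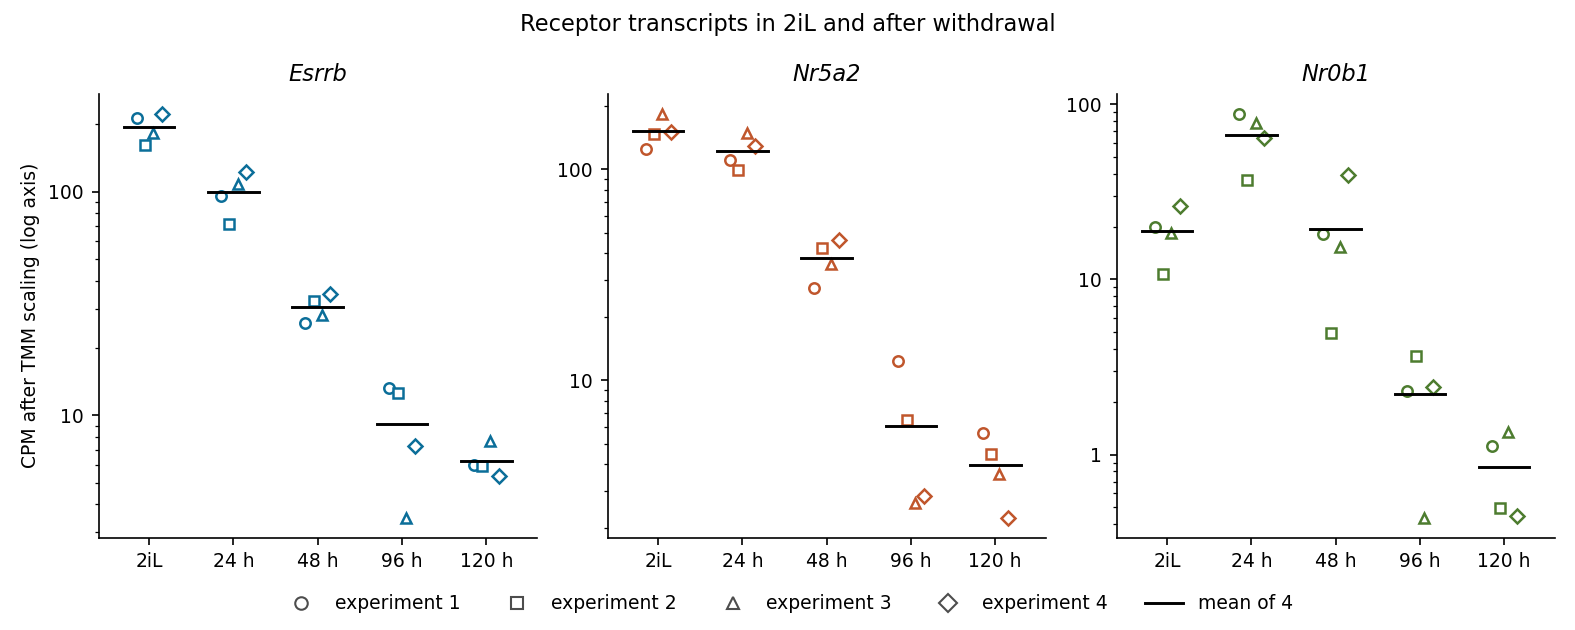
Transcript levels of Esrrb, Nr5a2 and Nr0b1 (CPM after TMM scaling, log axis, 1 panel per gene with its own scale) in 2iL and 24, 48, 96 and 120 h after withdrawal. Symbols are the 4 experiments and black lines their means: Esrrb and Nr5a2 step down, while the 4 Nr0b1 values at 24 h (36.8 to 88.1 CPM) lie above the 4 in 2iL (10.7 to 26.1 CPM).

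After 24 h without 2iL, Esrrb stood at 96.0, 71.6, 108 and 122 CPM in experiments 1 to 4, against 213, 161, 183.7 and 223 CPM in 2iL. Every 24 h library was below every 2iL library. Esrrb fell by 0.98 ± 0.28 on the log2 scale (SE, n = 4 each; adjusted p = 0.0129), a 1.97-fold difference, in 4 of 4 experiments. Of all tested genes, 8.29% fell in this comparison. Without the 24 h library of experiment 2, which had the lowest Esrrb level of that group, the log2 change was -0.85 and missed the threshold (adjusted p = 0.052).

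Nr5a2 had 111, 99.0, 148 and 129 CPM at 24 h, against 125, 147, 183 and 150 CPM in 2iL. The groups overlapped, although each 24 h library was below the 2iL library of its own experiment. The log2 change of -0.32 ± 0.28 was not called (adjusted p = 0.516), and its 95% interval ran from -0.89 to 0.26.

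Nr0b1 had 88.1, 36.8, 77.5 and 64.3 CPM at 24 h, against 19.8, 10.7, 18.4 and 26.1 CPM in 2iL. The lowest 24 h value lay above the highest 2iL value, and experiment 2 was the lowest of both groups. Nr0b1 rose by 1.83 ± 0.37 on the log2 scale (adjusted p = 0.000486; 95% interval of the fold 2.13 to 5.97), in 4 of 4 experiments. A rise was called for 7.68% of all tested genes. Beside it, the 8 neural progenitor markers (Sox1, Pax6, Nes, Zic1, Pax3, Six3, Pou3f2 and Hes5) summed to between 30.2 and 41.5 CPM at 24 h and between 14.7 and 24.0 CPM in 2iL. Of these 8, 1 rose. The 7 two-cell-like markers summed to at most 4.41 CPM at 24 h and 4.51 CPM in 2iL. The 7 fibroblast markers summed to between 171 and 333 CPM at 24 h and between 164 and 339 CPM in 2iL. For the 8 primitive endoderm markers the sums were 2.36 to 10.1 CPM at 24 h, with Foxa2 at 0. In 2iL these were 3.98 to 11.6 CPM, with Sox17 and Sox7 at 0. The 8 trophoblast markers summed to between 17.4 and 56.1 CPM at 24 h and between 84.6 and 156 CPM in 2iL, with Elf5 at 0 in both, and the 6 mesendoderm markers to between 0.691 and 6.30 CPM at 24 h, with Mixl1, Foxa2 and Mesp1 at 0, and between 20.3 and 34.6 CPM in 2iL. Eomes is in both lists. Of the 4 trophoblast markers with enough counts to be tested 2 fell, and of the 3 such mesendoderm markers 1 fell, where 8.29% of all tested genes did. Their part in the rise was not tested.

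Within a library, the ratio of 2 receptors' counts does not depend on library scaling. The log2 ratio of Esrrb to Nr0b1 averaged 0.62 ± 0.40 at 24 h and 3.42 ± 0.34 in 2iL (SD, n = 4 each), a difference of -2.80 with no overlap of the groups. The ratio of Nr5a2 to Nr0b1 averaged 0.92 ± 0.45 at 24 h and 3.05 ± 0.58 in 2iL, a difference of -2.13, again without overlap. The ratio of Esrrb to Nr5a2 averaged -0.30 ± 0.19 at 24 h and 0.37 ± 0.36 in 2iL, so the groups were apart here too, by -0.67. Each of these reached 0.0286, the smallest p of the exact two-sided permutation test with 4 libraries against 4. Over the 24 ratio comparisons made, 9 reached that p without overlap, each with an adjusted p of 0.0762, and 0 passed the 0.05 threshold after adjustment. At this smallest p, the adjusted p depends only on how many of the 24 reach it, and 9 were too few for any to pass. The lack of a call therefore does not show that the ratios were unchanged.

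By 48 h all 3 receptors were below their 24 h levels. Esrrb had 25.9, 32.6, 28.1 and 34.96 CPM at 48 h and fell by 1.70 ± 0.31 on the log2 scale against 24 h (adjusted p = 0.000439), with no overlap. Nr5a2 had 27.5, 42.5, 35.4 and 46.0 CPM at 48 h and fell by 1.69 ± 0.31 against 24 h (adjusted p = 0.000571), also with no overlap. This was the first called fall of Nr5a2. Nr0b1 had 18.1, 4.94, 15.3 and 39.2 CPM at 48 h and fell by 1.79 ± 0.37 against 24 h (adjusted p = 0.00196), with the 48 h library of experiment 4 above the 24 h library of experiment 2. Leaving out 1 library at a time, the change of Nr0b1 ranged from -2.40, without that 48 h library, to -1.46, without the 48 h library of experiment 2. All 3 receptors thus fell between 24 h and 48 h, as did 3.1% of tested genes.

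Against 2iL, Esrrb at 48 h was 6.41-fold lower (log2 -2.68 ± 0.30, adjusted p = 2.58e-08) and Nr5a2 4.01-fold lower (log2 -2.0 ± 0.31, adjusted p = 6.00e-06). Among all tested genes, 13.2% fell. Nr0b1 at 48 h averaged 19.4 ± 14.4 CPM, against 18.8 ± 6.32 CPM in 2iL (SD, n = 4 each). Its log2 change of 0.04 ± 0.38 was not called (adjusted p = 0.955), with a 95% interval of the fold from 0.598 to 1.77. The spread between experiments at 48 h was wide for Nr0b1, with the highest library 7.95 times the lowest, while this factor was 1.35 for Esrrb and 1.67 for Nr5a2.

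At 96 h the levels were lower again. Esrrb had 13.3, 12.5, 3.49 and 7.30 CPM at 96 h, below every 48 h library (log2 -1.72 ± 0.37, adjusted p = 0.000896). Nr5a2 had 12.4, 6.47, 2.62 and 2.84 CPM at 96 h, likewise below every 48 h library (log2 -2.65 ± 0.40, adjusted p = 1.31e-05). Nr0b1 had 2.29, 3.64, 0.436 and 2.43 CPM at 96 h, from 21 counts over the 4 libraries, and also did not overlap with 48 h (log2 -3.07 ± 0.49, adjusted p = 2.98e-05). Experiment 3 was the lowest library at 96 h for all 3 genes. Without experiment 3 the log2 changes were -1.50 for Esrrb, -2.44 for Nr5a2 and -2.84 for Nr0b1, all called. Without the 48 h library of experiment 4, the change of Nr0b1 was -2.48. Between 48 h and 96 h, 9.93% of tested genes fell. With library totals in place of TMM, 1571 genes rose and 852 fell in this comparison, against 1277 and 1100 with TMM, and the 3 receptors kept their calls. Against 2iL, the log2 changes at 96 h were -4.41 ± 0.34 for Esrrb (adjusted p = 4.62e-12), -4.65 ± 0.38 for Nr5a2 (adjusted p = 1.08e-11) and -3.03 ± 0.49 for Nr0b1 (adjusted p = 6.02e-06), where 19.2% of tested genes fell. Without experiment 3 these were -4.18, -4.31 and -2.72 for the same genes.

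At 120 h Esrrb had 5.97, 5.96, 7.66 and 5.36 CPM, Nr5a2 had 5.60, 4.47, 3.60 and 2.23 CPM, and Nr0b1 had 1.12, 0.497, 1.35 and 0.446 CPM. The ranges of 120 h and 96 h overlapped for each gene. No receptor was called against 96 h with edgeR or DESeq2, with log2 changes of -0.55 ± 0.44 for Esrrb (adjusted p = 0.579), -0.57 ± 0.53 for Nr5a2 (adjusted p = 0.643) and -1.29 ± 0.76 for Nr0b1 (adjusted p = 0.412), and no unadjusted p was under 0.05. Only 1.14% of tested genes were called in either direction, 126 genes, or 580 when the experiment entered the fit as a replicate block. Without experiment 3, 445 genes were called in this comparison, and again no receptor, with log2 changes of -0.91 for Esrrb, -0.75 for Nr5a2 and -1.87 for Nr0b1.

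Over the whole course to 120 h, Esrrb was 31.0-fold lower than in 2iL (log2 -4.95 ± 0.36, adjusted p = 9.82e-13). Nr5a2 was 37.1-fold lower (log2 -5.21 ± 0.40, adjusted p = 2.62e-12). Nr0b1, with only 8 counts over the 4 libraries at 120 h, was 20.04-fold lower (log2 -4.32 ± 0.57, adjusted p = 1.76e-07). A fall was called for 22.6% of tested genes. The 8 neural progenitor markers summed to between 244 and 638 CPM at 120 h and between 14.7 and 24.0 CPM in 2iL, with Zic1 at 0 in 2iL. All 8 rose, where 24.6% of tested genes did. Markers near 0 in 2iL pass the count filter only through groups where they are high, so their calls are no separate support. The part of these markers' cells in the fall of the receptors was not tested. As a share of the 2iL library of the same experiment, Esrrb averaged 50.8%, 15.8%, 4.80% and 3.27% at 24, 48, 96 and 120 h. Nr5a2 averaged 80.8%, 25.2%, 4.41% and 2.74% at these times. Nr0b1 averaged 364%, 92.7%, 14.3% and 4.83%, so its share exceeded those of the other two at every time, although at 96 h and 120 h the ranges over experiments overlapped.

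**Figure D2:**
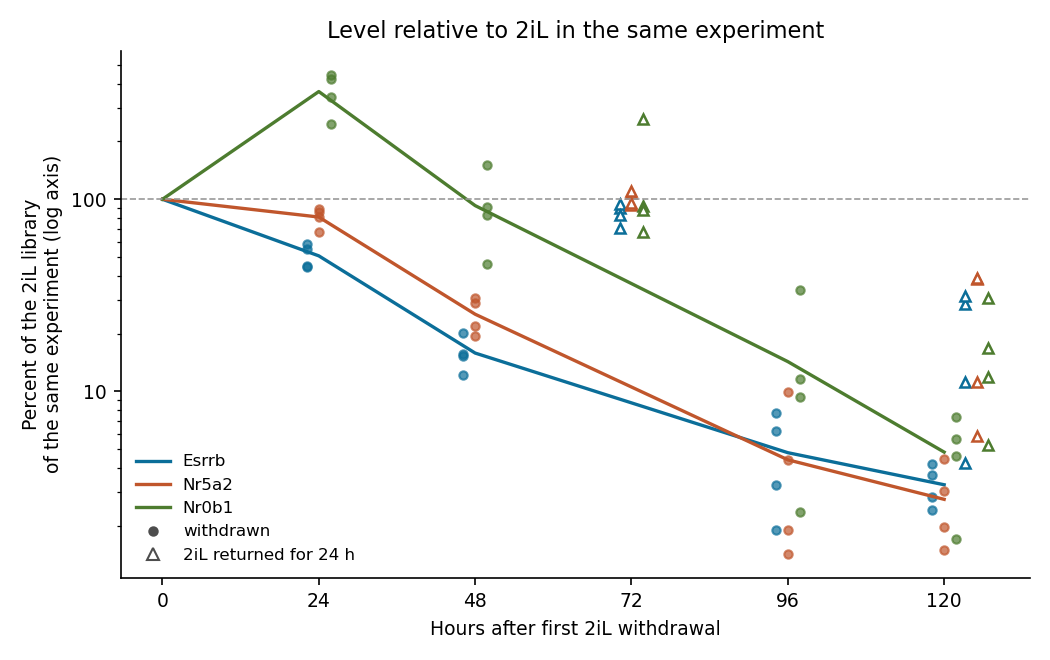
Level of each receptor as a percentage of the 2iL library of the same experiment (log axis) against hours since 2iL was first withdrawn; lines join the means, filled circles are withdrawn libraries, and open triangles are libraries given 2iL for the last 24 h (those at 120 h are drawn to the right of the circles). Nr0b1 peaks at a mean of 364% at 24 h. After 48 h of withdrawal the triangles lie between 70.5% and 94.3% for Esrrb and between 93.1% and 109.9% for Nr5a2. After 96 h those of both genes lie between 4.24% and 38.8%.

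The return of 2iL after 48 h raised Esrrb and Nr5a2. Esrrb had 191, 152, 153 and 157 CPM in 48 h + 2iL, against 25.9, 32.6, 28.1 and 34.96 CPM at 48 h. It rose 5.36-fold (log2 2.42 ± 0.30, adjusted p = 5.42e-07), with no overlap between the groups. Nr5a2 had 135, 137, 202 and 143 CPM in 48 h + 2iL, against 27.5, 42.5, 35.4 and 46.0 CPM at 48 h, and rose 4.08-fold (log2 2.03 ± 0.31, adjusted p = 1.33e-05), again without overlap. Of all tested genes, 7.24% rose. The 6 mesendoderm markers summed to between 61.4 and 137 CPM in 48 h + 2iL and between 0.613 and 5.19 CPM at 48 h, and the 8 trophoblast markers to between 99.1 and 171 CPM in 48 h + 2iL, with Elf5, Krt7 and Hand1 at 0, and between 18.7 and 29.4 CPM at 48 h, with Elf5 at 0. Eomes is in both lists. Of the 3 mesendoderm markers with enough counts to be tested 1 rose, and of the 4 such trophoblast markers 2 rose. Their part in the rise was not tested. Nr0b1 had 18.2, 28.2, 16.2 and 17.7 CPM in 48 h + 2iL, against 18.1, 4.94, 15.3 and 39.2 CPM at 48 h. Its 48 h + 2iL values lay inside the wide range of the 48 h values, and the log2 change of 0.07 ± 0.38 was not called (adjusted p = 0.934; 95% interval of the fold 0.614 to 1.799).

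Against cells kept in 2iL, 48 h + 2iL libraries gave log2 changes of -0.26 ± 0.27 for Esrrb (adjusted p = 0.610), 0.03 ± 0.28 for Nr5a2 (adjusted p = 0.970) and 0.11 ± 0.38 for Nr0b1 (adjusted p = 0.897). The ranges overlapped for each gene and no unadjusted p was under 0.05, while 11.6% of tested genes were called in either direction. The 95% intervals of the fold still allowed 0.574 to 1.22 for Esrrb, 0.687 to 1.51 for Nr5a2 and 0.636 to 1.84 for Nr0b1. Esrrb was below its own experiment's 2iL library in 4 of 4 experiments, at 84.4 ± 10.3% (SD, n = 4). Nr5a2 stood at 102 ± 8.50% of its 2iL libraries. For Nr0b1 this share ran from 67.7% to 263%, the highest in experiment 2, whose 2iL library had the lowest Nr0b1 level of its group.

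**Figure D3:**
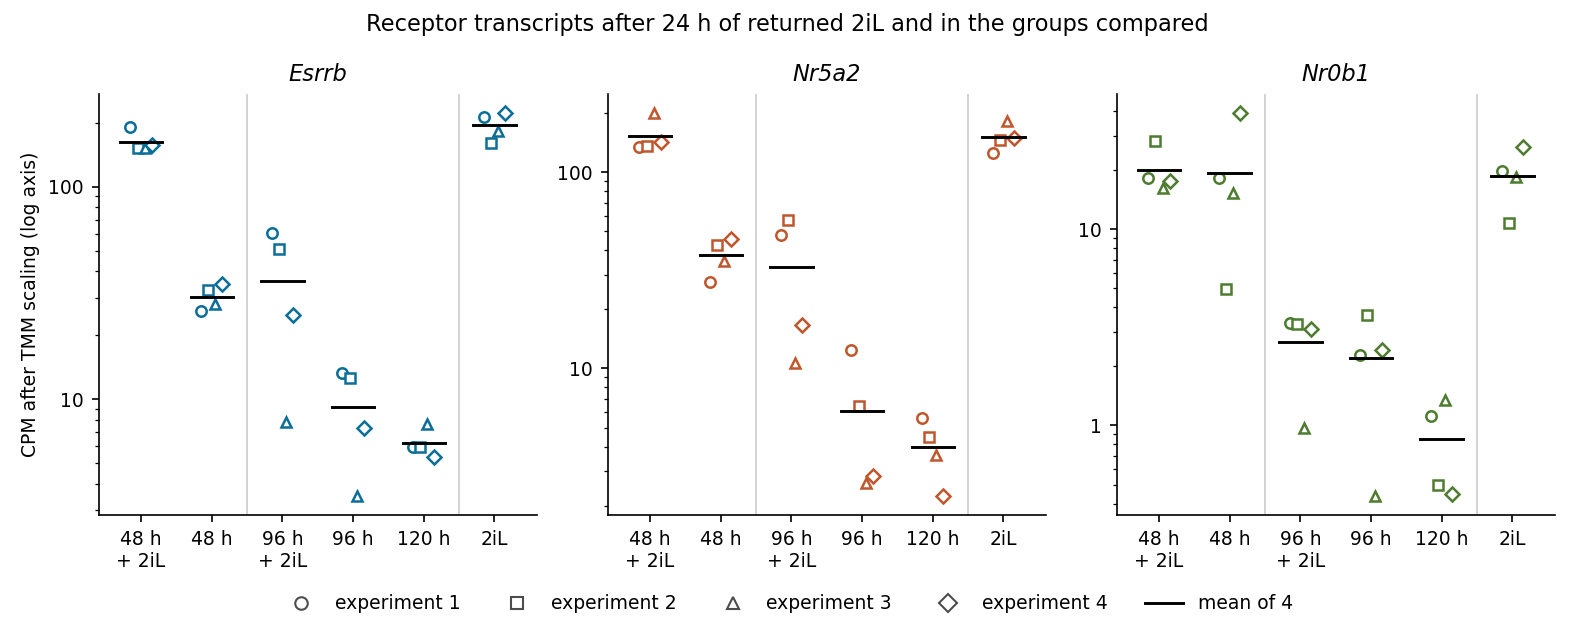
Transcript levels (CPM after TMM scaling, log axis, 1 panel per gene with its own scale) after 24 h of returned 2iL and in the groups they were compared with; symbols are experiments and black lines means of 4. Esrrb and Nr5a2 in 48 h + 2iL lie above 48 h, in ranges that overlap those of 2iL. In 96 h + 2iL their experiments 1 and 2 lie above experiments 3 and 4. Nr0b1 in 48 h + 2iL lies within the range of 48 h.

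After 96 h the levels reached with 2iL differed between experiments, and so did the 96 h levels they are compared with. Esrrb had 60.8, 50.7, 7.79 and 24.8 CPM in 96 h + 2iL, against 13.3, 12.5, 3.49 and 7.30 CPM at 96 h. It rose 3.97-fold (log2 1.99 ± 0.36, adjusted p = 0.000362), and although the 2 groups overlapped, each returned library was above the 96 h library of its experiment. Nr5a2 had 47.9, 56.9, 10.7 and 16.8 CPM in 96 h + 2iL, against 12.4, 6.47, 2.62 and 2.84 CPM at 96 h. It rose 5.60-fold (log2 2.49 ± 0.40, adjusted p = 7.79e-05), in 4 of 4 experiments. A rise was called for 4.02% of tested genes. Without experiment 3 the log2 changes were 2.07 for Esrrb (adjusted p = 2.86e-06) and 2.55 for Nr5a2 (adjusted p = 5.07e-06).

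Nr0b1 had 3.32, 3.30, 0.973 and 3.10 CPM in 96 h + 2iL, against 2.29, 3.64, 0.436 and 2.43 CPM at 96 h. The ranges overlapped, with 22 counts in the returned libraries and 21 at 96 h. The log2 change of 0.26 ± 0.63 was not called (adjusted p = 0.856), and its 95% interval of -1.02 to 1.54 reached past 1.26, the lower bound of the interval for Esrrb. Without experiment 3 the change was 0.22 (adjusted p = 0.891). The log2 ratio of Esrrb to Nr0b1 averaged 3.39 ± 0.69 in 96 h + 2iL and 2.04 ± 0.50 at 96 h. The groups did not overlap and differed by 1.35 (exact permutation p = 0.0286, adjusted p = 0.0762 over the 24 ratio comparisons). Leaving out 1 library, this difference ran from 1.11, without the 96 h + 2iL library of experiment 1, to 1.57, without that of experiment 3. The ratio of Nr5a2 to Nr0b1 differed by 1.96, with overlap (exact permutation p = 0.0571). In 48 h + 2iL against 48 h, the ratios of Esrrb and Nr5a2 to Nr0b1 differed by 2.07 and 1.68, both with overlap (exact permutation p = 0.0571 and 0.114).

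Against 120 h, the group collected equally long after the first withdrawal, Esrrb in 96 h + 2iL was 5.81-fold higher (log2 2.54 ± 0.38, adjusted p = 0.000108) and Nr5a2 8.28-fold higher (log2 3.05 ± 0.43, adjusted p = 3.77e-05). Neither gene's groups overlapped. Nr0b1 was not called (log2 1.56 ± 0.75, edgeR adjusted p = 0.370), although its unadjusted edgeR p was 0.0464 and the 95% interval of its fold ran from 1.02 to 8.49. A rise in this comparison was called for 1.28% of tested genes. Without experiment 3 the log2 changes were 2.98 for Esrrb, 3.30 for Nr5a2 and 2.09 for Nr0b1, with the same calls.

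The receptors in 96 h + 2iL stayed below 2iL. The log2 changes were -2.42 ± 0.29 for Esrrb (adjusted p = 6.45e-08), -2.16 ± 0.31 for Nr5a2 (adjusted p = 9.08e-07) and -2.77 ± 0.49 for Nr0b1 (adjusted p = 2.45e-05), and no groups overlapped. A fall was called for 19.5% of tested genes. Against 48 h + 2iL, the changes were -2.16 ± 0.29, -2.19 ± 0.31 and -2.88 ± 0.48 for Esrrb, Nr5a2 and Nr0b1 in that order, with adjusted p of 2.18e-06, 3.39e-06 and 4.00e-05, where 11.2% of tested genes fell. Without experiment 3 the changes against 2iL were -2.11, -1.76 and -2.50 and those against 48 h + 2iL were -1.855, -1.74 and -2.70 for the same genes, all called. By experiment, Esrrb in 96 h + 2iL reached 4.24% to 31.4% of its 2iL library and Nr5a2 5.84% to 38.8%, with experiment 3 the lowest for both.

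The fold of the response to 2iL was not detectably different after 96 h and after 48 h. The difference of the log2 responses, after 96 h minus after 48 h, was -0.43 ± 0.48 for Esrrb (adjusted p = 0.817), 0.46 ± 0.51 for Nr5a2 (adjusted p = 0.816) and 0.19 ± 0.73 for Nr0b1 (adjusted p = 0.958). No unadjusted p was under 0.05. The 95% intervals ran from -1.41 to 0.55, from -0.57 to 1.48 and from -1.29 to 1.67 for the same genes. Without experiment 3 the differences were -0.36 for Esrrb, 0.70 for Nr5a2 and 0.13 for Nr0b1, none called. Across all genes, 0.921% were called, which is 102 genes, or 194 with the experiment as a replicate block. Of the 102, 50 had a positive difference and 52 a negative one, against 34 and 54 with library totals.

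**Figure D4:**
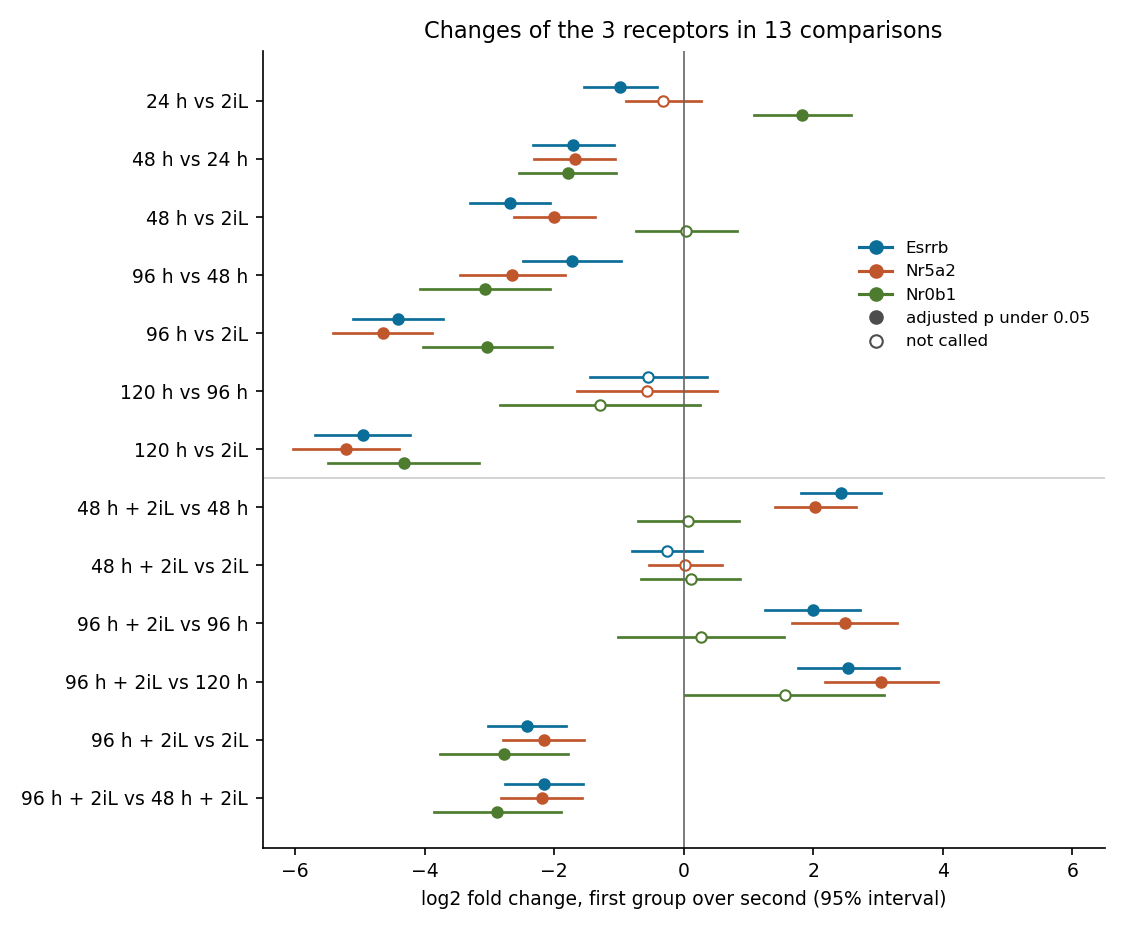
log2 fold change of each receptor, first-named group over second, with its 95% interval, in 13 comparisons (7 of withdrawal above the grey line, 6 with returned 2iL below it); filled points passed an adjusted p of 0.05 and open points did not. Nr0b1 alone is positive at 24 h against 2iL (1.83) and is open in 48 h + 2iL against 48 h and 96 h + 2iL against 96 h, where Esrrb and Nr5a2 are filled.

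Other markers moved with the differences between experiments in 96 h + 2iL. The 14 naive network partners in the list used here (such as Klf4, Nanog, Tbx3 and Tfcp2l1) summed to 1142, 1032, 394 and 687 CPM in experiments 1 to 4, the same order as Esrrb. Nr5a2 differed from this order, with experiment 2 (56.9 CPM) above experiment 1 (47.9 CPM). In experiment 3 the partners summed to 438 CPM at 96 h, so they were not higher with 2iL there. The 8 neural progenitor markers summed to 167, 229, 827 and 485 CPM, the reverse of the Esrrb order. At 96 h these 8 summed to between 106 and 338 CPM and in 2iL to between 14.7 and 24.0 CPM, and none was at 0 in 96 h + 2iL. The part of such cells in the receptor levels was not tested. The 8 trophoblast markers, of which Elf5 was at 0, summed to between 50.1 and 219 CPM in 96 h + 2iL and between 84.6 and 156 CPM in 2iL. The 6 mesendoderm markers, of which Mesp1 was at 0, summed to 99.7, 128, 6.33 and 18 CPM in experiments 1 to 4 of 96 h + 2iL and to between 20.3 and 34.6 CPM in 2iL. Eomes is in both the trophoblast and the mesendoderm list. The 7 two-cell-like markers summed to at most 0.621 CPM in 96 h + 2iL.

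Ordered by mean level, Esrrb was highest in 2iL, then 48 h + 2iL, 24 h, 96 h + 2iL, 48 h, 96 h and 120 h. The ranges of neighbours overlapped for 2iL and 48 h + 2iL, for 96 h + 2iL and 48 h, and for 96 h and 120 h. Nr5a2 followed the order 48 h + 2iL, 2iL, 24 h, 48 h, 96 h + 2iL, 96 h and 120 h, and among neighbours the ranges were separate only between 24 h and 48 h. Nr0b1 was highest at 24 h, then came 48 h + 2iL, 48 h, 2iL, 96 h + 2iL, 96 h and 120 h. Its ranges were separate between 24 h and 48 h + 2iL and between 2iL and 96 h + 2iL, and overlapped for the other neighbours.

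Likeness of pattern was measured as Pearson's r of log2 CPM over the 28 libraries, which share groups and experiments, and is a description. Among 11079 other genes, Nr5a2 ranked 2 for Esrrb (r = 0.975) and Esrrb ranked 1 for Nr5a2. The genes most like Esrrb were Bcl3 (0.981), a nuclear IkappaB family protein, then Nr5a2, Mylpf, Fam25c, Kat6b, Triml1, Mov10 and Klf2 (0.952). The 8 most like Nr5a2 were Esrrb, Bcl3 (0.966), Triml1, Mov10, 1700097N02Rik, Klf5, Agtrap and 1700061G19Rik (0.941). Nr0b1 was less alike, with r = 0.843 to Nr5a2 and 0.810 to Esrrb, which ranked 200 and 318 among its genes. Its 8 nearest were Hspb1 (0.932), a small heat shock protein, Irak3 (0.928), Mybl2, AC241534.4, Zfp57, Wapl, Sept1 and Shmt1 (0.923). Irak3 shared the high 24 h level, with a mean of 60.2 CPM at 24 h and 23.3 CPM in 2iL, as did Hspb1, with 215 CPM at 24 h and 119 CPM in 2iL.

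Components of the WNT and LIF pathways, on which CHIR99021 and LIF act, were read beside the receptors. No list of genes downstream of MEK, the target of PD0325901, was used. Of 13 WNT and LIF pathway genes, 5 fell and 1 rose at 24 h against 2iL, where 8.29% of all tested genes fell and 7.68% rose. Their median log2 change was -0.33 against 0.01 over all tested genes. Axin2, a feedback target of WNT signalling, averaged 5.65 ± 1.71 CPM at 24 h and 49.6 ± 14.4 CPM in 2iL and fell by 3.17 ± 0.41 on the log2 scale (adjusted p = 1.11e-06). Sp5, another WNT target, averaged 2.39 ± 2.39 CPM at 24 h and 114 ± 18.3 CPM in 2iL and fell by 5.56 ± 0.63 (adjusted p = 1.15e-07). Tcf7l1, the repressor that GSK3 inhibition relieves at Esrrb, averaged 272 ± 37.5 CPM at 24 h and 158 ± 27.9 CPM in 2iL and rose by 0.78 ± 0.22 (adjusted p = 0.0118). Both WNT targets were lower at 24 h, when Esrrb had fallen and Nr0b1 had risen. CHIR99021, PD0325901 and LIF were withdrawn together, and the part of each in these changes was not tested.

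On the return of 2iL after 48 h, 4 of the 13 pathway genes rose, where 7.24% of all tested genes did. Axin2 averaged 57.7 ± 24.1 CPM in 48 h + 2iL and 4.22 ± 1.14 CPM at 48 h (log2 3.74 ± 0.42, adjusted p = 7.68e-08). Stat3, the transcription factor downstream of LIF, averaged 109 ± 21.3 CPM in 48 h + 2iL and 64.8 ± 15.7 CPM at 48 h (log2 0.75 ± 0.20, adjusted p = 0.00798). After 96 h, 5 rose and 1 fell, where 4.02% of all tested genes rose and 5.23% fell. The one that fell was Tcf7l1, with 103 ± 37.9 CPM in 96 h + 2iL and 219 ± 35.9 CPM at 96 h (log2 -1.09 ± 0.22, adjusted p = 0.00128). Axin2 rose here as well, to 61.3 ± 6.40 CPM in 96 h + 2iL, against 14.4 ± 12.2 CPM at 96 h (log2 2.09 ± 0.34, adjusted p = 0.00011).

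The 14 naive network partners showed the direction of Esrrb and Nr5a2. At 24 h 7 fell and 1 rose, at 48 h 13 fell and 1 rose, and at 120 h 12 fell, each against 2iL, where 8.29%, 13.2% and 22.6% of all tested genes fell at these times. On the return of 2iL, 10 rose after 48 h, where 7.24% of all tested genes rose, and 6 rose and 1 fell after 96 h, where 4.02% rose and 5.23% fell. The list was drawn up with earlier results of these libraries known and is no independent evidence of direction. Zfp42 (Rex1), a marker of naive cells, is a member whose 24 h level, 280 ± 42.2 CPM, was not called against 239 ± 33.3 CPM in 2iL (log2 0.23 ± 0.33, adjusted p = 0.713).

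The nuclear receptor family list held 46 other members. Of these, 20 had enough counts to be tested, and Nr1h5 was at 0 in every library. At 48 h against 2iL, 5 of the 20 rose and 2 fell, where 14.6% of all tested genes rose and 13.2% fell, and their median log2 change was 0.08 against 0.02 over all genes. Nr6a1 (GCNF), known as a repressor of Pou5f1 in differentiating ES cells, averaged 114 ± 36.4 CPM at 48 h and 21.9 ± 2.74 CPM in 2iL and rose by 2.36 ± 0.26 (adjusted p = 2.10e-08). Rarg, a retinoic acid receptor, averaged 251 ± 44.4 CPM at 48 h and 64.3 ± 10.9 CPM in 2iL (log2 1.97 ± 0.27, adjusted p = 9.55e-07), and Nr2f6, an orphan receptor, averaged 43.5 ± 9.34 CPM at 48 h and 15.03 ± 3.95 CPM in 2iL (log2 1.54 ± 0.29, adjusted p = 0.000109). Rxrg, a retinoid X receptor, averaged 4.35 ± 2.93 CPM at 48 h and 0.094 ± 0.188 CPM in 2iL, too few counts for a fold to be read. Rora (log2 -1.26 ± 0.48, adjusted p = 0.0486) and Nr2c2 (log2 -0.47 ± 0.14, adjusted p = 0.0104) fell.

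By 120 h, 9 of the 20 had risen against 2iL and 2 had fallen, where 24.6% of tested genes rose and 22.6% fell, with a median log2 change of 0.62 against 0.01 over all genes. Nr6a1 reached 295 ± 31.9 CPM at 120 h, against 21.9 ± 2.74 CPM in 2iL (log2 3.74 ± 0.26, adjusted p = 4.70e-13). Nr2f1 (COUP-TFI), known for its role in neural development, averaged 66.0 ± 32.9 CPM at 120 h and 3.99 ± 1.03 CPM in 2iL (log2 4.0 ± 0.76, adjusted p = 5.31e-05). Rara, a retinoic acid receptor (log2 -1.34 ± 0.20, adjusted p = 1.76e-06), and Nr1h2, an oxysterol receptor (log2 -0.84 ± 0.25, adjusted p = 0.00633), were the 2 that fell.

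When 2iL was returned after 48 h, 3 of the 20 other receptors fell, while 7.67% of tested genes fell. Rarg was at 91.9 ± 24.9 CPM in 48 h + 2iL, against 251 ± 44.4 CPM at 48 h (log2 -1.46 ± 0.26, adjusted p = 0.000168). Nr2f6 (log2 -1.0 ± 0.28, adjusted p = 0.0117) and Rxrg (adjusted p = 0.0254) were the other 2. Rxrg averaged 0.951 ± 0.914 CPM in 48 h + 2iL and 4.35 ± 2.93 CPM at 48 h, too few counts for a fold to be read. After 96 h, 1 rose and 2 fell, where 4.02% of tested genes rose and 5.23% fell. Rxra, a retinoid X receptor, averaged 33.6 ± 8.78 CPM in 96 h + 2iL and 19.2 ± 5.19 CPM at 96 h (log2 0.79 ± 0.25, adjusted p = 0.0379), and Rarg (log2 -1.06 ± 0.27, adjusted p = 0.0104) and Rxrg (log2 -2.60 ± 0.59, adjusted p = 0.0041) fell.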

How the data were processed

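RNA was read by 3′ digital gene expression sequencing of polyadenylated transcripts, per the labels. The submitters' processing notes name bcl2fastq, STAR 2.6.0a, HTSeq and the mm10 build. The authors deposited raw counts per gene for each library, which were used for all tests. They also deposited a CPM table of 30386 genes, which matched the counts in 28 of 28 columns within 1e-06. The HTSeq entry for alignments to more than 1 place made up 52.3% to 60.1% of all entries summed and was left out of the gene counts. Whether this entry counts each read once was not established, so it is not a share of reads.

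Genes were filtered with filterByExpr (minimum count 10, minimum total 15), scaled by TMM and fitted in 1 quasi-likelihood model of 28 libraries (edgeR 4.0.16, limma 3.58.1, R 4.3.3), checked on simulated counts. DESeq2 1.42.0, other scalings, no filter, a replicate block and leaving out each library were alternatives. Leaving out experiment 3 was an alternative chosen after seeing the data. Standard errors are the absolute change over the square root of F. Ratios added 0.5 to each count. The titles number the experiments, which pairs the libraries: deviations of same-numbered libraries correlated at a median of 0.07 (-0.04 to 0.42), against -0.03 for others. Depth limits precision most for Nr0b1 from 96 h on. The 3 receptors and all gene lists were chosen with earlier results of these data known. Named genes were the receptors, list members, up to 4 called genes per direction and list, and the 8 most alike by Pearson's r (prior count 2). A gene that this rule names is not reported here.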

Additional observations from a re-analysis of the deposited data

Results flagged for a closer look

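In 4 of 21 combinations of receptor and group, the library farthest from the rest lay further off than Dixon's 95% critical value for 4 samples. The nominal rate of about 1 in 20 holds for independent, normally distributed values, and the receptors share libraries. The share of all tested genes past this value was not computed, so 4 of 21 is not read as an excess. In 48 h + 2iL, Esrrb was highest in experiment 1 at 191 CPM, Nr5a2 in experiment 3 at 202 CPM and Nr0b1 in experiment 2 at 28.2 CPM, so the high library was another one for each gene. In 96 h + 2iL, Nr0b1 was lowest in experiment 3 at 0.973 CPM, the experiment that was also lowest there for Esrrb and Nr5a2. That Nr0b1 level rests on 2 counts, against 7, 8 and 5 in experiments 1, 2 and 4, too few to set the library apart.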

How the results depend on the processing

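Over the settings other than leaving out 1 library, 250 of 252 receptor fold changes kept their direction and side of the threshold. The exceptions were uncalled: Nr0b1 at 48 h against 2iL was -0.0229 with the replicate block, and Nr5a2 in 48 h + 2iL against 2iL was -0.025 without experiment 3. The replicate block changed no receptor's call.

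Leaving out 1 library kept 346 of 360. Esrrb at 24 h against 2iL ranged from -1.10 to -0.85 and lost its call once. The other 13 changed sign and were uncalled, with ranges of -0.57 to 0.37 (Nr0b1, 48 h against 2iL), -0.81 to 0.0192 (Nr5a2, 120 h against 96 h), -0.25 to 0.68 (Nr0b1, 48 h + 2iL against 48 h), -0.10 to 0.30 and -0.13 to 0.13 (Nr0b1 and Nr5a2, 48 h + 2iL against 2iL), -0.0634 to 0.62 (Nr0b1, 96 h + 2iL against 96 h) and -0.41 to 0.54 (Nr0b1, difference of responses). Log2 ratios that changed sign ranged from -0.27 to 0.19 (Esrrb to Nr0b1, 96 h + 2iL against 2iL) and from -0.34 to 0.12 (Nr5a2 to Nr0b1, 48 h + 2iL against 2iL).

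Counts of called genes moved at 120 h against 96 h (126; 580 with the replicate block, 653 without the filter, 284 with DESeq2, 445 without experiment 3, and 0 to 686 leaving out 1 library, lowest without the 96 h library of experiment 2 and highest without that of experiment 3), in 96 h + 2iL against 120 h (291; 493 without the filter, and 158 to 450) and for the difference of responses (102; 194 with the block, 321 without the filter, 168 with DESeq2, and 49 to 136). Leaving out 1 library gave 424 to 628 at 48 h against 24 h (728, lowest without the 48 h library of experiment 3), 759 to 1266 in 48 h + 2iL against 2iL (1288, lowest without the 48 h + 2iL library of experiment 3) and 658 to 1323 in 96 h + 2iL against 96 h (1024, lowest without the 96 h library of experiment 2). Library totals moved the median log2 change of all genes at 120 h against 2iL to 0.13 (0.01 with TMM), and the split at 120 h against 96 h to 85 up and 43 down (66 and 60). The cause was not tested. Nr0b1 had 8 to 22 counts a group at 96 h, 120 h and 96 h + 2iL, which limits what could be detected there.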

Other observations

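Of 21 nuclear receptor coregulators, 19 were tested. At 120 h against 2iL, 4 rose and 6 fell, where 24.6% of all tested genes rose and 22.6% fell. Ncoa7 averaged 26.1 ± 3.59 CPM at 120 h and 12.0 ± 7.89 CPM in 2iL (log2 1.09 ± 0.30, edgeR adjusted p = 0.00319). Ncoa3, a coactivator known to work with Esrrb in mouse ES cells, averaged 26.9 ± 6.06 CPM at 120 h and 75.1 ± 9.29 CPM in 2iL (log2 -1.48 ± 0.19, adjusted p = 9.92e-08). Ncor1, a corepressor, averaged 340 ± 15.1 CPM at 120 h and 565 ± 69.6 CPM in 2iL (log2 -0.73 ± 0.10, adjusted p = 2.13e-07).

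Nrip1, a corepressor of nuclear receptors, had the direction of Esrrb and Nr5a2 at 48 h. It averaged 13.01 ± 4.74 CPM at 48 h and 42.1 ± 12.9 CPM in 2iL (log2 -1.69 ± 0.40, adjusted p = 0.0014). On the return of 2iL it averaged 31.7 ± 5.77 CPM in 48 h + 2iL and 13.01 ± 4.74 CPM at 48 h (log2 1.28 ± 0.40, adjusted p = 0.0266), and 61.1 ± 22.3 CPM in 96 h + 2iL and 20.1 ± 12.8 CPM at 96 h (log2 1.6 ± 0.36, adjusted p = 0.00408). At 120 h without 2iL it averaged 61.2 ± 21.6 CPM as well, so its 96 h + 2iL level was not set apart from 120 h (log2 -0.0032 ± 0.34, adjusted p = 0.9995), whereas Esrrb and Nr5a2 were higher in 96 h + 2iL than at 120 h.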
